A study of Mus musculus with 8 samples.

Results

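The comparison described here sets type 2 against type 1 conventional dendritic cells (cDC2 and cDC1) of the mouse spleen after deletion of Hdac1. Open chromatin was read by ATAC-seq, an assay whose transposase, Tn5, cuts and tags accessible DNA. It rests on the 4 libraries whose titles name the knockout (KO), 2 of cDC1 and 2 of cDC2, of 8 libraries in all. KO mice carried a floxed Hdac1 gene and Mx1-Cre, a transgene whose promoter responds to interferon and which is not restricted to dendritic cells. The other 4 libraries, 2 for each subset, came from mice with floxed Hdac1 and no Cre (WT here). Both genotypes had been given poly I:C, which induces interferon, and the cells were sorted 2 weeks later. After enrichment of dendritic cells, lineage-negative CD11c+MHCII+CD64- cells were sorted as XCR1+CD11b- (cDC1) or XCR1-CD11b+ (cDC2). The labels do not say whether the libraries of a group came from separate animals, and p-values here speak only to the spread seen among the libraries.

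HDAC1 takes acetyl groups off histone tails as part of the SIN3, NuRD and CoREST complexes, where its close relative HDAC2 can take its place. The cDC1 subset depends on the transcription factors IRF8 and BATF3 and is known for presenting antigen from dead cells to CD8 T cells. The cDC2 subset uses IRF4, KLF4, ZEB2 and Notch2 signalling and is known for presenting antigen to CD4 T cells. Open sites at promoters are largely common to related cell types, whereas open sites farther from genes tend to differ between them.

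The authors deposited 1 list of summits per library, a summit being the point of highest signal in a called peak. The KO cDC1 lists held 74963 and 96031 summits and the KO cDC2 lists 69025 and 78296. The mean length was 85497 ± 14900 (SD, n = 2) in KO cDC1 and 73660.5 ± 6560 (SD, n = 2) in KO cDC2, and the lengths overlapped (p = 0.667, two-sided exact permutation test, in which 2 libraries against 2 cannot go below 0.333). Each list was therefore cut to its 61737 highest-scoring summits, the length of the shortest of the 8 lists. Summits in cut lists were given to the nearest protein-coding gene within 50 kb. Sequencing depth is unknown, and a site open in fewer cells cannot be told apart from a site less open in each cell.

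At Hdac1 itself (chromosome 4, 129516104 to 129542646, mm10) the lists held 1 summit in each of the 4 KO libraries. The WT cDC1 libraries had 2 and 1 and the WT cDC2 libraries 1 and 2. In all 8 libraries a summit lay by a gene end, which need not touch the floxed part, so these values do not check the deletion. Hdac2 had 4 and 3 summits in KO cDC1 and 2 and 2 in KO cDC2. Its log2 difference of -0.58 did not pass the test (adjusted p = 0.322, limma).

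The promoters of 5 genes show what such a difference looks like in sequence. In each, a summit lay in both libraries of 1 KO subset and in neither of the other, in the cut lists. Such windows numbered 305 for KO cDC1 and 230 for KO cDC2, and the 5 are a selection from those of called genes. All 5 go the same way as the gene's call. Others did not: Tmem185b and Ypel5 had a KO cDC1 window with log2 differences of 1.0 and 1.31, and Stx8 a KO cDC2 window with -1.45. Each run gives the 250 bases before the start of the RefSeq transcript (GRCm38.p6), 5′ to 3′ on the gene's strand. Capitals mark a match to 1 of 6 motifs searched on both strands: AP-1 (TGANTCA), an interferon response element (GAAA, 2 bases of any kind, GAAA), PU.1 (GAGGAAGT), RUNX (TGTGGTT), NF-kB (GGGA, any base, TTTCC) and the CCAAT box (CCAAT). No printed run holds more than 1 match, so no matches overlap.
Cd8a, KO cDC1, chr6:71373177-71373426, plus strand: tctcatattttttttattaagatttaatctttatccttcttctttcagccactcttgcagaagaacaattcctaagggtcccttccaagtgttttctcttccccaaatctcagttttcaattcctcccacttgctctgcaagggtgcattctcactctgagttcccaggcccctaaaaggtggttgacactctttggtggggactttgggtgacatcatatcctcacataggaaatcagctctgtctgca
Gpr141b, KO cDC1, chr13:19732952-19733201, minus strand: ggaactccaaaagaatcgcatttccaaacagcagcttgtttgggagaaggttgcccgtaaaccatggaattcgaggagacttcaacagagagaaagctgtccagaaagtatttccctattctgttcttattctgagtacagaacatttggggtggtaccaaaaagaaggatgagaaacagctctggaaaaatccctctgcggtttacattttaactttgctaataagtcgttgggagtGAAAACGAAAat
Pcsk5, KO cDC1, chr19:17837633-17837882, minus strand: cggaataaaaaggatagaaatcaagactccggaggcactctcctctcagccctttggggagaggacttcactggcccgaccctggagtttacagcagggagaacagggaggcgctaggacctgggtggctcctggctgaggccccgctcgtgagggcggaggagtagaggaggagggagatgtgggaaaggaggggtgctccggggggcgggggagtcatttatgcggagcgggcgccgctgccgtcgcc
Tmem132c, KO cDC2, chr5:127241576-127241825, plus strand: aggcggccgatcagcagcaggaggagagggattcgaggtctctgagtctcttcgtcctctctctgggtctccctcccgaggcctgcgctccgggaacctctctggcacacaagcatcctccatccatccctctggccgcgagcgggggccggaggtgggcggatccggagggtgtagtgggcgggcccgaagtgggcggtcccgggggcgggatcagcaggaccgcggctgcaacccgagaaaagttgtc
Mmp8, KO cDC2, chr9:7558179-7558428, plus strand: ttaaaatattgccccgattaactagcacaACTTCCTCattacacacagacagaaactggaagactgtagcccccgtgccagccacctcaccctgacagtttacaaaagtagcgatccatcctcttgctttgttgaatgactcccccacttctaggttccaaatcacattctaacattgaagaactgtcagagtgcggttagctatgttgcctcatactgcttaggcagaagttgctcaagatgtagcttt

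Positions at these promoters are counted from the transcript start, with negative values upstream. At Cd8a the summits lay at -65 and -39 in KO cDC1 and at -61 and 27 in WT cDC1. The ranks of the KO summits within their libraries were 8754 and 7500. No cut list of cDC2 held a summit there, though the full deposited lists of KO cDC2 held one below the cut, 116 bp from the start. At Gpr141b, whose last bases before the start carry the interferon response element, the KO cDC1 summits lay at 13 and -46, and the nearest deposited KO cDC2 summit was 1992 bp away. At Pcsk5 the KO cDC1 summits lay at -50 and 1, with a deposited KO cDC2 summit 124 bp from the start. At Tmem132c the KO cDC2 summits lay at -61 and -23 and the nearest deposited KO cDC1 summit was 79744 bp away. At Mmp8, whose PU.1 letters stand near the far end of the run, the KO cDC2 summits lay at -60 and -61 and a deposited KO cDC1 summit lay 199 bp from the start. The Tmem132c and Gpr141b promoters therefore differed between the KO subsets in the full lists too, whereas at Cd8a, Pcsk5 and Mmp8 a summit of the other subset was deposited nearby with a rank below the cut.

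Counting summits per gene, 280 of the 14108 genes tested, or 1.98%, differed between the KO subsets at an adjusted p under 0.05 (limma on log2 of summits + 1, Benjamini-Hochberg over all genes tested). Of these, 116 genes (0.822%) had more summits in KO cDC2 and 164 (1.16%) had more in KO cDC1. Genes with more summits in KO cDC2 included the sodium channel gene Scn11a and the transmembrane protein gene Tmem132c. Genes with more summits in KO cDC1 included Cd8a, whose product marks cDC1 in mouse lymphoid organs, and the proprotein convertase gene Pcsk5. At an unadjusted p under 0.05 there were 2098 genes. With the full lists of unequal length 241 genes were called, 25 higher and 216 lower, so that higher calls made up 10.4% of calls in place of 41.4%, and 127 of the 280 calls were kept. The fit pools the spread over all 8 libraries, and leaving out any 1 WT library raised the count to between 696 and 706, whereas leaving out any 1 KO library gave 317 to 386.

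The largest difference in favour of KO cDC2 was at Scn11a (chromosome 9, 119753763 to 119825456), which encodes a voltage-gated sodium channel. It had 10 and 8 summits in KO cDC2 and 1 and 0 in KO cDC1. The log2 difference was 2.81 ± 0.302 (SE, adjusted p = 0.000194, limma). WT libraries gave 9 and 9 in cDC2 and 0 and 0 in cDC1, so both genotypes were separated by subset with no overlap. Of its 8 sites found in KO cDC2 alone, 1 lay inside the gene and the others up to 50 kb around it, in a stretch of 122 kb. In the WT libraries 6 of these sites had the same pattern.

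Tmem132c, a gene for a membrane protein, had 12 and 12 summits in KO cDC2 and 2 and 2 in KO cDC1. Its log2 difference was 2.12 ± 0.262 (SE, adjusted p = 0.000642, limma). The 7 KO cDC2-only sites of this gene spanned 338 kb, and all 7 were found in both WT cDC2 libraries and in no WT cDC1 library. A single site of the same gene was found in KO cDC1 alone.

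Dpp10, which encodes a membrane protein that binds potassium channels, held the most KO cDC2-only sites, 11. The KO cDC2 libraries had 18 and 25 summits and the KO cDC1 libraries 6 and 5 (log2 difference 1.78 ± 0.257 SE, adjusted p = 0.00186, limma). WT cDC2 had 17 and 20 and WT cDC1 6 and 6. One of its sites, chr1:123752082-123752154, ranked 1931 and 3472 in the KO cDC2 libraries and was also in both WT cDC2 libraries. The nearest KO cDC1 summit to that site was 135464 bp away. None of the 11 sites held a WT cDC1 summit.

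The genes named next were chosen for large differences in favour of KO cDC2 and had few summits there. With 1 exception, 4930503B20Rik, they had none in KO cDC1. This does not hold for the higher calls in general, as only 30 of the 116 were listed at 0 in KO cDC1. Nsg2, for a protein of neuronal endosomes, was listed at 0 in all 4 cDC1 libraries and had 4 and 4 summits in KO cDC2 and 3 and 3 in WT cDC2. Its log2 difference was 2.32 ± 0.249 (SE, adjusted p = 0.000194, limma). Uox, the urate oxidase gene, and C1qtnf3, a secreted C1q-related protein gene, each had 3 and 3 in KO cDC2 and 0 in all cDC1 libraries. The gene next to Uox, 4930503B20Rik, had 6 and 6 against 2 and 0. Hsd11b1, for the enzyme that regenerates active glucocorticoid, had 3 and 4 against 0 and 0. The transcription factor genes Bhlhe23 and Pou3f3 and the synaptotagmin gene Syt6 were listed at 0 in both KO cDC1 libraries, as were the orexin receptor gene Hcrtr2 and the neurotensin gene Nts. Their KO cDC2 libraries held 2 to 4 summits. In WT, Nts gave 0 and 2 in cDC2 and Syt6 gave 4 and 1, so the WT spread for these was wide. With the full lists of unequal length the calls of Nsg2, Uox, 4930503B20Rik, Hsd11b1, Syt6, Pou3f3 and Nts were lost, and that of C1qtnf3 was lost when summits were counted within 5 kb of each gene.

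The largest difference in favour of KO cDC1 was at Dcdc5 (chromosome 2, 106080864 to 106409743), which encodes a doublecortin-domain protein. It had 10 and 9 summits in KO cDC1 and was listed at 0 in both KO cDC2 libraries. The log2 difference was -3.39 ± 0.38 (SE, adjusted p = 0.000292, limma). Its 8 KO cDC1-only sites all lay inside the gene, within 112 kb, and 6 of them had the same pattern in WT. WT cDC1 had 9 and 6 summits and WT cDC2 0 and 2. With no rounding variance in the fit, the calls of Dcdc5, Cd8a, Gpr141b, Tpte and Ccdc60 were lost.

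Chst9, for a sulfotransferase, had 4 and 8 summits in KO cDC1 and 9 and 7 in WT cDC1, and was listed at 0 in all 4 cDC2 libraries. Its log2 difference was -2.75 ± 0.29 (SE, adjusted p = 0.000194, limma). Cnnm1, of a family linked to magnesium transport, had 5 and 5 against 0 and 0 (log2 difference -2.58 ± 0.246 SE, adjusted p = 0.000184, limma). Pcsk5, whose enzyme cleaves secreted precursor proteins, had 4 and 5 against 0 and 0 and was listed at 0 in WT cDC2 too. In these 3 genes the subsets did not overlap in either genotype.

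The zinc finger gene Zkscan2 had 5 and 5 summits in KO cDC1, Rtl4 4 and 4, Tpte 4 and 6, Ankrd31 3 and 5, and Ccdc60 5 and 3, and all 5 genes were listed at 0 in KO cDC2. Gpr141b, an orphan receptor gene, had 7 and 5 against 0 and 1. The agouti gene a, whose product is a pigment switch, had 3 and 4 against 0 and 0, with WT values of 2 and 3 in cDC1 and 1 and 2 in cDC2. P3h2, for a collagen-modifying enzyme, had 18 and 18 summits in KO cDC1 and 5 and 7 in KO cDC2. Its 9 KO cDC1-only sites all had the same pattern in the WT libraries, and none had a deposited KO cDC2 summit within 1 kb. Its log2 difference was -1.46 ± 0.263 (SE, adjusted p = 0.00893, limma).

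**Figure D1:**
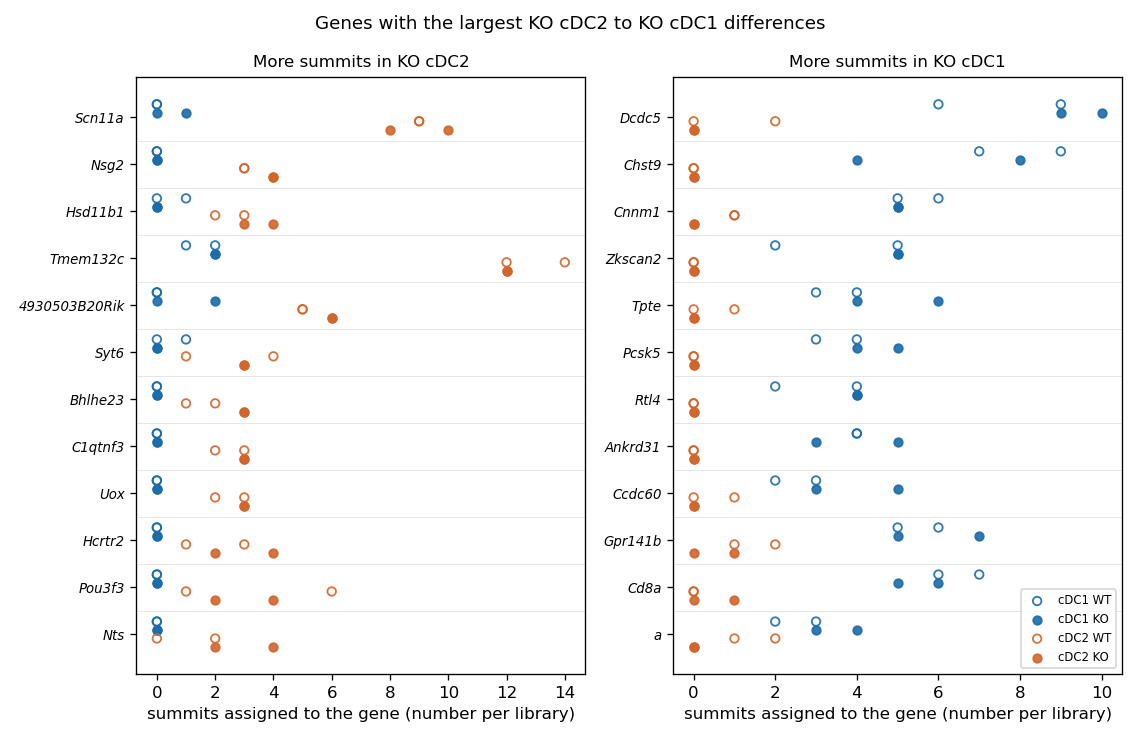
Summits assigned to each gene in each library (x axis, number) for the 12 genes with the largest log2 differences in each direction between the KO subsets; filled points are KO libraries, open points WT libraries, blue cDC1 and orange cDC2. Filled blue and orange points do not overlap in any of these genes, as the rule that chose them required, and at Scn11a the KO cDC2 libraries held 10 and 8 summits against 1 and 0.

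The WT libraries took no part in calling the KO difference beyond the shared spread, the filter on low genes and the length of the cut, so they show whether the KO differences were found again. Of the 116 genes higher in KO cDC2, 113 had a WT difference of the same sign, 2 had none and 1 had the opposite sign. For 97 of them (83.6%) the WT libraries did not overlap in the same direction, beside 14.5% over all genes tested, and 66 were also called in WT. Of the 164 lower genes, 163 had the same sign in WT and 1 had no difference. Here 139 (84.8%) did not overlap in the same direction, beside 15.4% over all genes, and 91 were called in WT. No KO call had WT libraries that did not overlap in the opposite direction.

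Both genotypes therefore shared the direction of the subset difference at nearly all these genes. The median log2 difference was 1.32 in KO and 1.15 in WT for the higher genes, and -1.45 in KO and -1.08 in WT for the lower genes. Sizes in KO exceed those in WT for 83 of the 116 and 121 of the 164, but the genes were selected on the KO values, so this says nothing of the genotypes. In WT, 546 genes (3.87%) were called, 256 higher (1.81%) and 290 lower (2.06%) in cDC2, and 157 genes were called in the same direction in both genotypes. A call in 1 genotype and not in the other is no test of a difference between them.

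**Figure D2:**
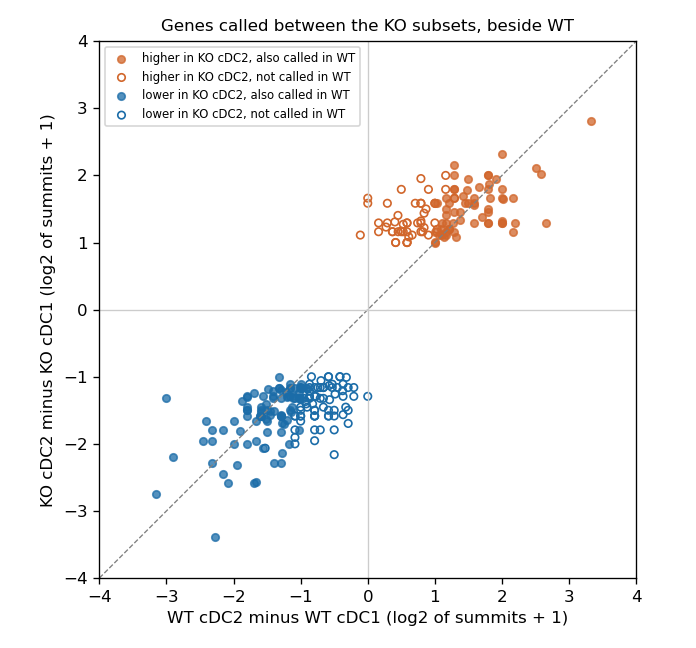
Log2 differences between cDC2 and cDC1 (log2 of summits + 1) in WT (x axis) and KO (y axis) for the 280 genes called between the KO subsets; orange genes were higher and blue genes lower in KO cDC2, filled points were also called in WT, and the dashed line marks equal values. All but 4 points lie in the lower left or upper right, with 113 of 116 higher and 163 of 164 lower genes on the same side in WT.

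Tested directly, the subset difference in KO did not depart from that in WT at any gene past the threshold (0 of 14108, or 0%, limma, smallest adjusted p = 0.221), and 539 genes had an unadjusted p under 0.05. Leaving out any 1 library gave between 5 and 43 such genes. The smallest p was at the ephrin receptor gene Epha3. It was listed at 0 in WT cDC1 and had 3 and 4 summits in KO cDC1, while cDC2 had 3 and 3 in both genotypes, a difference of log2 differences of -2.16. Myo18b, a myosin gene, had 0 and 0 in WT cDC1 and 3 and 3 in WT cDC2, and 1 in each KO library. Cpb1, for a carboxypeptidase, had 0 and 0 in WT cDC1, 2 and 4 in WT cDC2 and 1 in each KO library. Sh3gl3, an endophilin gene, was called in KO, with 7 and 6 in KO cDC1 and 2 and 2 in KO cDC2 (log2 difference -1.32, adjusted p = 0.0104, limma). Its WT values were 7 and 7 against 0 and 0.

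Among genes that define cDC1, 2 of the 25 tested were called, both with more summits in KO cDC1 (Cd8a and Plpp1). Over all genes tested 1.16% were called in that direction. None of the 25 was called in the other direction, beside 0.822% of all genes. The median log2 difference of these 25 genes was -0.40, beside 0.00 over all genes tested. For 14 of them (56.0%) every KO cDC1 library exceeded every KO cDC2 library, beside 13.7% of all genes, and 2 did so the other way. Cd8a (chromosome 6, 71373427 to 71379171) had 5 and 6 summits in KO cDC1 and 0 and 1 in KO cDC2 (log2 difference -2.20 ± 0.304 SE, adjusted p = 0.00138, limma). Plpp1, for a lipid phosphatase, had 9 and 7 against 2 and 3 (log2 difference -1.37 ± 0.265 SE, adjusted p = 0.0138). The Plpp1 call was lost in 7 of 20 alternatives, among them the full lists, a limit of 10 kb, a span of 5 kb around each gene and leaving out the first KO cDC2 library, and its log2 difference ranged from -1.58 to -0.37 over the 20.

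Cd8a carried 5 KO cDC1-only sites, placed -13.5, -6.06, -0.019, 8.45 and 9.05 kb from its start. Of these, 4 were found in both WT cDC1 libraries and in no WT cDC2 library. Cd8b1, the gene for the partner chain of CD8 and the next gene on the chromosome, had 5 and 4 summits in KO cDC1 and 1 and 1 in KO cDC2 (log2 difference -1.45 ± 0.342 SE, adjusted p = 0.0375). The Cd8b1 call was lost in 4 of 18 alternatives. In WT, Cd8b1 had 4 and 1 summits in cDC1 and 1 and 1 in cDC2, which overlapped and gave no call (adjusted p = 0.339, limma). Of its 2 KO cDC1-only sites, 0 had the same pattern in WT. CD8 on these cells consists of the alpha chain, and Cd8b1 was counted in the T cell list.

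The transcription factor gene Irf8 had 14 and 15 summits in KO cDC1 and 11 and 10 in KO cDC2. Its libraries did not overlap, and the log2 difference of -0.43 ± 0.243 (SE) did not pass the test (adjusted p = 0.474). In WT it was -0.91 (adjusted p = 0.0475), from 16 and 14 against 8 and 7, and the difference between the genotypes was 0.48 (unadjusted p = 0.181). Its 3 KO cDC1-only sites lay 21.2, 38.4 and 42.9 kb downstream of the start, past the end of the gene, and none held a WT cDC2 summit. Batf3, the partner factor, had 9 summits in each KO library, yet 2 of its sites, 1.98 and 7.66 kb from the start, were found in KO cDC1 alone. Equal numbers of summits per gene can thus hold different sites.

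The adhesion gene Cadm1 had 24 and 23 summits in KO cDC1 and 11 and 14 in KO cDC2 (log2 difference -0.87, adjusted p = 0.0871). It carried 10 KO cDC1-only sites and 2 KO cDC2-only sites over its length. Il12b, for the shared chain of IL-12 and IL-23, had 9 and 10 against 6 and 7. Its 3 KO cDC1-only sites, at -0.24, 10.6 and 14.9 kb, were in both WT cDC1 libraries and in no WT cDC2 library. Id2, an inhibitor of helix-loop-helix factors, had 6 and 5 against 5 and 6. Nfil3, a factor that promotes cDC1 fate and stood in the cDC1 list, had 6 and 4 in KO cDC1 and 10 and 9 in KO cDC2 (log2 difference 0.83, adjusted p = 0.175).

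The sort marker Xcr1 had no deposited summit inside the gene in any of the 8 libraries, and each library had 1 or 2 within 5 kb. Clec9a, a receptor for dead cells, had 1 and 2 summits in KO cDC1 and 2 and 2 in KO cDC2. Its promoter nevertheless held a summit in both KO cDC1 libraries, at -53 and -45 from the start (ranks 20077 and 27217), and in both WT cDC1 libraries (ranks 29268 and 24492). The full KO cDC2 lists held no summit within 1 kb of that start, and no WT cDC2 cut list held one in the promoter window. No KO cDC1-only site was assigned to Clec9a, so the site at its promoter was given to another gene and its count leaves that site out. The number of summits separated the KO subsets at Cd8a, whereas the count at Clec9a does not speak to its promoter, where the KO subsets differed.

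Of the 25 cDC2 genes tested none was called, beside 1.98% of all genes, and their median log2 difference was 0.28. For 11 (44.0%) every KO cDC2 library exceeded every KO cDC1 library, beside 13.6% of all genes, and 1 gene, Itgam, did so the other way. Zeb2, a repressor needed for cDC2, had 16 and 16 summits in KO cDC2 and 9 and 13 in KO cDC1 (log2 difference 0.52, adjusted p = 0.362). Sirpa, a surface marker of cDC2, had 7 and 8 against 5 and 5 (log2 difference 0.50, adjusted p = 0.403). Clec4a4, for the receptor DCIR2, had 2 and 2 against 0 and 1 (log2 difference 1.08, adjusted p = 0.0866), and was called without any 1 WT library or without the second KO cDC1 library. Irf4, with 7 and 4 against 4 and 4, and Klf4, with 9 and 5 against 5 and 5, overlapped between the subsets.

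The cDC2 list carried 29 KO cDC2-only and 15 KO cDC1-only sites, and the cDC1 list 51 KO cDC1-only and 17 KO cDC2-only sites. Over all genes tested there were 7104 KO cDC1-only and 5913 KO cDC2-only sites. At Klf4 a KO cDC1-only site lay -0.109 kb from the start (ranks 7544 and 7311) and a KO cDC2-only site lay -0.522 kb from it (ranks 8322 and 6048). Notch2 had 14 and 17 summits in KO cDC2 and 12 and 13 in KO cDC1, with 2 sites of each kind. Itgam, the gene of the sort marker CD11b, had 7 and 7 in KO cDC2 and 8 and 9 in KO cDC1 (log2 difference -0.25, adjusted p = 0.778). Its promoter window nevertheless held a summit in both KO cDC2 libraries, at 21 and 46 from the start (ranks 31905 and 48387), and the full KO cDC1 lists held none within 1 kb of the start. No WT cut list held a summit in that window, but the KO cDC2-only site there (chr7:128062661-128062765) also held a summit of the first WT cDC2 library.

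**Figure D3:**
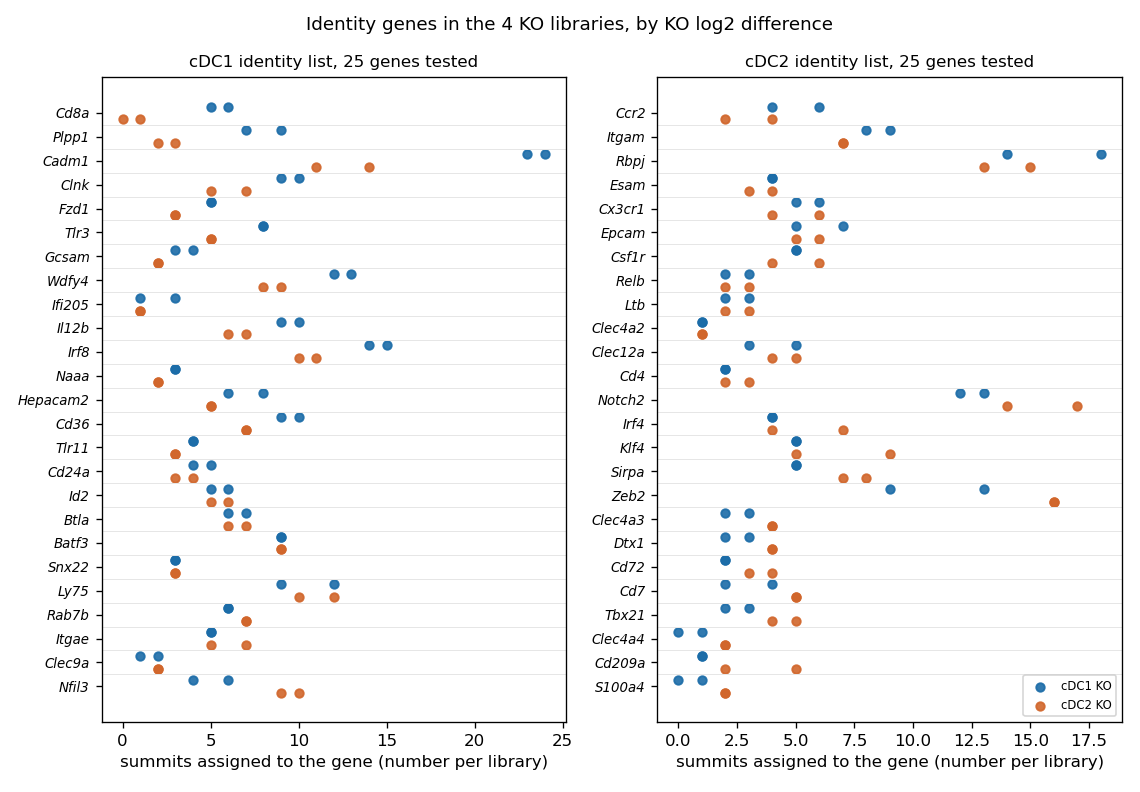
Summits per gene (x axis, number) in the 2 KO cDC1 libraries (blue) and the 2 KO cDC2 libraries (orange) for the 25 tested genes of the cDC1 list and of the cDC2 list, ordered by the KO log2 difference. In 14 genes of the cDC1 list the blue points lie wholly to the right of the orange points, and in 11 genes of the cDC2 list wholly to the left.

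Genes common to both subsets gave no call, though with 1.98% of all genes called a list this short need not hold one. None of the 20 genes of the list of common dendritic cell and MHC class II genes was called, and the list had a median of 0.00, with 2 of the 20 genes not overlapping in favour of KO cDC2, beside 13.6% over all genes, and none the other way. The growth factor receptor gene Flt3 had 14 and 13 summits in KO cDC2 and 14 and 15 in KO cDC1, and Zbtb46, a factor of the cDC lineage, 9 and 11 against 12 and 10. None of the 26 genes of innate sensing was called, beside the same 1.98%. In 9 of the 26 (34.6%) the libraries did not overlap in favour of KO cDC2 and in 5 (19.2%) the other way, beside 13.6% and 13.7% of all genes. The endosomal RNA sensor gene Tlr7 had 7 and 7 summits in KO cDC2 and 1 and 5 in KO cDC1 (log2 difference 1.21, adjusted p = 0.124), Tlr8 7 and 7 against 4 and 4, and Tlr3 5 and 5 against 8 and 8 (log2 difference -0.58, adjusted p = 0.297). These 3 genes were chosen after their values were seen.

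None of the 34 genes of histone deacetylases and HDAC1 complexes was called between the KO subsets, beside 1.98% of all genes, and their median was 0.00. In 7 (20.6%) the KO cDC1 libraries were wholly above the KO cDC2 libraries and in 2 (5.88%) wholly below, beside 13.7% and 13.6% over all genes. Of the 27 genes of maturation, cytokines and chemokines tested, none was called, beside the same 1.98%. In 7 of the 27 (25.9%) the libraries did not overlap in favour of KO cDC1 and in 3 (11.1%) the other way, beside 13.7% and 13.6% of all genes. Of the 17 interferon-stimulated genes tested, 1 was called, with fewer summits in KO cDC2, beside 1.16% of all genes called in that direction. This was Trim30a, a tripartite-motif gene, with 5 and 5 summits in KO cDC1 and 2 and 2 in KO cDC2 (log2 difference -1.0 ± 0.247 SE, adjusted p = 0.0494). The Trim30a call was lost in 9 of 20 alternatives, among them leaving out any 1 of the 4 KO libraries. The list as a whole did not go the way of Trim30a, with a median log2 difference of 0.13. In 5 of its 17 tested genes (29.4%) the libraries did not overlap in favour of KO cDC2, beside 13.6% of all genes. In 2 (11.8%) they did so the other way, beside 13.7%. None of the lists of transcription factors (35 genes), cell uptake and cross-presentation (21) or cell cycle (24) held a call. With 1.98% of all genes called, lists this short need not hold one.

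Markers of other cells that a sort could hold were counted in the same way. In the T cell list Cd2, an adhesion receptor, had 5 and 5 summits in KO cDC2 and 1 and 2 in KO cDC1 (log2 difference 1.29 ± 0.29 SE, adjusted p = 0.0284). The Cd2 call was lost in 8 of 20 alternatives, and its log2 difference ranged from 0.50 to 2.00. Among these 8 were the full lists, a limit of 10 kb, a span of 5 kb around each gene and leaving out the first KO cDC1 library. The summed summits of the T cell list were 55 and 55 in KO cDC1 and 63 and 66 in KO cDC2, and 8 of the 16 tested (50.0%) did not overlap in favour of KO cDC2, beside 13.6% of all genes, and 1 (6.25%) did so the other way. Cd3g was listed at 0 in all 4 KO libraries, and Cd3e had 4 and 4 in KO cDC1 and 5 and 3 in KO cDC2. In the NK cell list the sums were 30 and 31 against 35 and 35, with Nkg7 at 0. Of its 10 tested genes 4 did not overlap in favour of KO cDC2, beside 13.6% of all genes, and 2 did so the other way.

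Among granulocyte genes, the collagenase gene Mmp8 had 4 and 3 summits in KO cDC2 and 0 and 1 in KO cDC1 (log2 difference 1.66 ± 0.315 SE, adjusted p = 0.0116). The Mmp8 call was lost in 6 of 19 alternatives, and its log2 difference ranged from 0.66 to 2.20. Among these 6 were the full lists, a score of at least 5 and leaving out the first KO cDC1 library. The sums of this list were 22 and 24 in KO cDC2 and 24 and 26 in KO cDC1, and Mpo, Elane, Camp and Ngp were at 0 in all 4. Of its 8 tested genes 3 (37.5%) did not overlap in favour of KO cDC2 and 3 (37.5%) the other way, beside 13.6% and 13.7% of all genes. No gene of the lists of plasmacytoid dendritic cells (17 tested), monocytes and macrophages (19), B cells (8) or erythroid cells and megakaryocytes (6) was called. The share over all genes was 1.98%. Summed levels for plasmacytoid cells were 88 and 90 in KO cDC1 and 112 and 107 in KO cDC2, those for monocytes and macrophages 75 and 75 against 73 and 65, those for B cells 35 and 33 against 31 and 35, and those for erythroid cells and megakaryocytes 14 and 13 against 12 and 13. The plasmacytoid list had a median log2 difference of 0.00. Of its 17 tested genes 3 (17.6%) did not overlap in each direction, near the 13.6% and 13.7% of all genes. Most of its difference in sum came from Runx2, with 21 and 16 summits in KO cDC1 and 33 and 32 in KO cDC2, and from Zeb2, which is also in the cDC2 list. Pacsin1 went the other way, with 7 and 6 against 3 and 3, as did Cox6a2, with 2 and 2 against 0 and 1. At 0 in all KO libraries were Klk1 and Klk1b27, Ly6c1, and the erythroid and platelet genes Hba-a1, Hbb-bs, Gata1, Alas2, Ppbp and Car1. No B cell gene was at 0 in all of them. The part of such cells in the differences was not tested.

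Single open sites were then compared by chaining summits of the 8 cut lists that lay within 250 bp of each other, which gave 112443 sites, 94789 of them with a KO summit. Of the latter, 8662 (9.14%) had a summit in both KO cDC1 libraries and in no KO cDC2 library, and 7174 (7.57%) the reverse. All 4 KO libraries shared 35435 sites. The Jaccard index, the share of sites common to 2 libraries, was 0.672 for the KO cDC1 pair, 0.671 for the KO cDC2 pair and 0.526 to 0.540 for the 4 pairs across subsets. Leaving out 1 KO library relaxes what a subset-only site must meet and gave 11248 to 15133 cDC1-only and 10265 to 14213 cDC2-only sites. The count of KO cDC2-only sites fell to 3391 when the full lists of KO cDC1 were also required to hold no summit in the site, and that of KO cDC1-only sites to 6938 under the same requirement.

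Many sites absent from the cut lists of the other subset had a summit in its full lists. In 1724 KO cDC1-only sites (19.9%) a KO cDC2 library held a deposited summit below the cut, and in 3783 KO cDC2-only sites (52.7%) a KO cDC1 library did, the KO cDC1 lists being the longer ones on average. Sites with no cut-list summit of the other subset within 1 kb numbered 7592 (87.6%) for cDC1 and 5946 (82.9%) for cDC2. With the full lists of the other KO subset, only 5973 KO cDC1-only and 2561 KO cDC2-only sites had no such summit within 1 kb. The best-ranked subset-only sites had such a neighbour: at Insig1, Tom1, Slc25a42, between Khsrp and Slc25a41, and between Hdgfl2 and Ubxn6, the KO cDC1 and KO cDC2 summits lay 346 to 722 bp apart near a gene end. At Slc25a42, for example, a KO cDC1-only site was at chr8:70212351-70212371 and a KO cDC2-only site at chr8:70212717-70212776. Both KO subsets thus held a high-ranking summit at these promoters, at different points.

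Summits of the WT libraries did not decide which sites were called subset-only, though they entered the chaining of sites, and the length of the cut is that of a WT cDC2 list. In the WT libraries, 6082 of the KO cDC1-only sites (70.2%) were in both WT cDC1 libraries and 6976 (80.5%) in neither WT cDC2 library. Both held for 4865 sites (56.2%), beside 12.9% of all sites found in both KO cDC1 libraries. The opposite pattern was seen at 32 sites. Of the KO cDC2-only sites, 3946 (55.0%) were in both WT cDC2 libraries and 5282 (73.6%) in neither WT cDC1 library. Both held for 2719 (37.9%), beside 9.33% of all sites found in both KO cDC2 libraries, and the opposite pattern for 40. No WT library had a summit at 778 KO cDC1-only sites (8.98%) and 1045 KO cDC2-only sites (14.6%). All 4 WT libraries had one at 367 and 400.

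**Figure D4:**
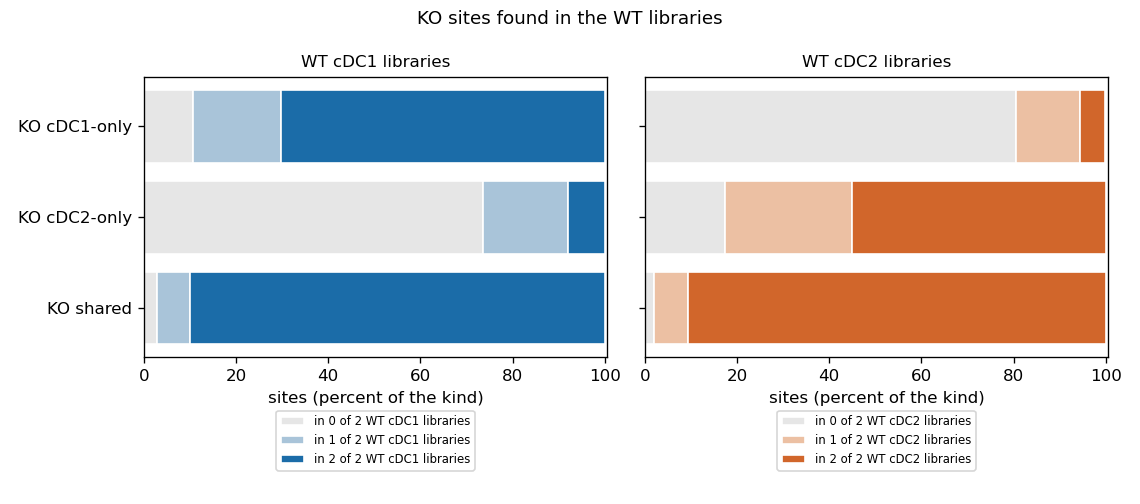
Share of the KO cDC1-only (8662), KO cDC2-only (7174) and KO shared (35435) sites found in 0, 1 or 2 of the WT cDC1 libraries (left) and of the WT cDC2 libraries (right), in percent of each kind of site. KO cDC1-only sites were in both WT cDC1 libraries in 70.2% and KO cDC2-only sites in both WT cDC2 libraries in 55.0%.

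Subset-only sites lay farther from gene ends and ranked lower than shared sites. Within 1 kb of a gene end were 6.21% of KO cDC1-only, 8.27% of KO cDC2-only and 28.4% of shared sites. Inside genes, more than 1 kb from an end, were 53.3%, 50.3% and 39.3%. More than 50 kb from any protein-coding gene were 14.8%, 13.8% and 8.8%. The median rank, averaged over the libraries that held the site, was 39500, 42900 and 21500, and 4.84%, 2.17% and 36.8% ranked within the first 15434. The lists were cut by rank, so rank and kind of site are not independent.

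**Figure D5:**
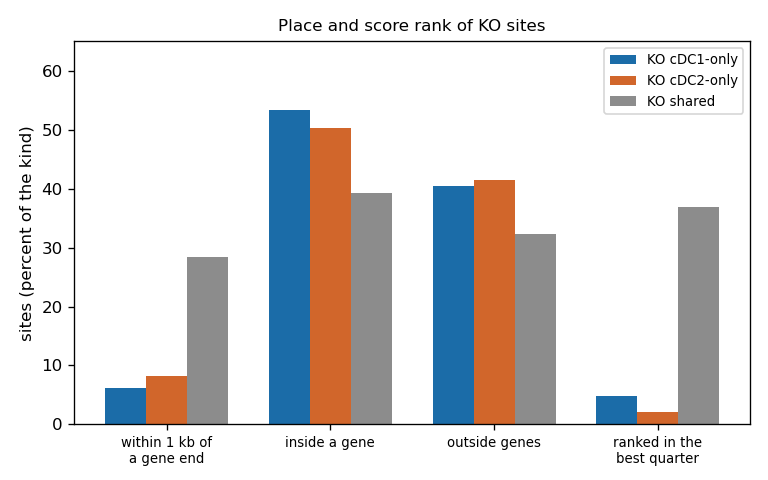
Share of each kind of KO site (percent) within 1 kb of a gene end, inside a gene, outside genes, and ranked within the first 15434 summits of a cut list; blue bars are KO cDC1-only, orange KO cDC2-only and grey shared sites. Shared sites lie within 1 kb of a gene end in 28.4%, subset-only sites in 6.21% and 8.27%.

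The place of summits as a whole was compared by shares of each cut list. The share within 1 kb of a gene end was 20.2% ± 0.582 in KO cDC1 and 20.8% ± 0.277 in KO cDC2 (SD, n = 2), and the share inside genes 44.1% ± 0.261 and 43.4% ± 0.104 (SD, n = 2). Both differences had p = 0.333 in the exact permutation test, the smallest that 2 against 2 can give. The difference near gene ends, 0.63 percentage points, became 2.02 with the full lists, 0.105 with the 30868 highest summits and 0.235 with a window of 500 bp, and leaving out 1 KO library gave 0.219 to 1.04. Inside genes it was -0.733 and became -1.54 with the full lists. Outside genes the difference was 0.103 percentage points (p = 1, exact permutation test), and it became -0.488 with the full lists, -0.124 without the first KO cDC1 library and -0.0194 without the second KO cDC2 library.

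By gene, 4700 genes had a KO cDC1-only site and 4246 a KO cDC2-only site, and 1773 had both kinds. At least 3 such sites were found at 616 and 419 genes. The most KO cDC1-only sites, 12 each, were at Foxp1, a forkhead factor gene, Dlg2, a synaptic scaffold gene, and Plcb4, a phospholipase gene. Plcb4 had 27 and 29 summits in KO cDC1 and 13 and 15 in KO cDC2 (log2 difference -0.95, adjusted p = 0.0678) and was called without any 1 WT library, and 8 of its 12 sites had the same pattern in WT. Dlg2 had 30 and 31 against 20 and 18 (adjusted p = 0.215).

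Foxp1 had 12 KO cDC1-only and 10 KO cDC2-only sites beside 33 shared ones, with 64 and 62 summits in KO cDC1 and 67 and 63 in KO cDC2 (log2 difference 0.04, adjusted p = 1). Both kinds of site lay inside the gene over 571 and 550 kb. Zfp704, a zinc finger gene, had 10 KO cDC2-only sites and 2 KO cDC1-only sites, with 17 and 22 summits in KO cDC2 and 12 and 8 in KO cDC1 (adjusted p = 0.113), and was called without any 1 WT library. Arhgap26 had 10 KO cDC2-only and 4 KO cDC1-only sites, Cmip 8 and 1, and Tmem135 7 and 3. Itpr1, for an intracellular calcium channel, had 11 KO cDC1-only and 5 KO cDC2-only sites, Immp2l 9 and 3, and Dock2, for a Rac activator of leukocytes, 9 and 1. None of these 6 genes was called, their KO adjusted p values ranging from 0.29 at Dock2 to 0.659 at Itpr1. The called genes were longer than the tested genes as a whole, with a median span of 41.1 kb (higher) and 56.7 kb (lower) against 25.3 kb over all genes tested.

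Called genes stood next to each other in 8 pairs, 4 in each direction. Besides Cd8b1 with Cd8a and Uox with 4930503B20Rik, these were Jph1 with Gdap1, Mgme1 with Ovol2 and Gpr83 with Izumo1r (higher in KO cDC2), and Adcy6 with Cacnb3, Spdye4c with Anapc1 and Whamm with Homer2 (lower). Since a summit goes to 1 gene only, the partners of a pair do not share summits.

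Promoters were a small part of the subset-only sites. Of 21262 RefSeq promoter windows (17491 genes), 5867 held a summit of all 4 KO libraries, 305 a summit of both KO cDC1 libraries and of no KO cDC2 library, and 230 the reverse. Of these, 40 KO cDC1-only and 19 KO cDC2-only windows had no deposited KO summit of the other subset within 1 kb of the start. The interferon response element was in 4 of the 40 and in none of the 19, beside 2.96% of all windows. AP-1 letters were in 5 of the 40 and 1 of the 19, beside 6.13%. The CCAAT box was in 8 of the 40 and 6 of the 19, beside 35.4% of all windows and 44.6% of the windows shared by the 4 KO libraries. The median GC content of the 250 upstream bases was 55.2%, 58.0% and 62.4% for KO cDC1-only, KO cDC2-only and shared windows, beside 55.6% for all windows. These counts are small and describe letters, not binding.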

How the data were processed

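Summit lists of 8 ATAC-seq libraries were used. Per the submitters' processing notes the authors worked with MACS2, Bowtie2, MultiQC and SAMtools and the mouse build GRCm38 (mm10). Versions and settings are not given in the sources used here. The deposited score was taken as the −log10 of a peak's q-value within its own library and served to rank summits. No read counts were used, so there are no counting intervals.

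Lists were cut to the 61737 highest-scoring summits. Each summit went to the nearest of 21883 protein-coding genes (RefSeq, GRCm38.p6) within 50 kb. Genes averaging 1 or more summits over the 8 libraries were fitted with limma 3.58.1 (R 4.3.3) on log2(summits + 1), so that fold changes of genes with few summits are understated, with 1 mean per group and the rounding variance of whole numbers (0.0833 squared summits) added before moderation. Sites and promoter windows were processed in Python 3.11.15. An SE comes from this fit.

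The genes named were the 12 with the largest difference in each direction among called genes whose KO libraries do not overlap, called members of the lists, 20 lineage genes whatever their result, the 8 with the most subset-only sites of each kind, the 6 with the smallest interaction p and those at the 5 best-ranked sites of each kind. Members, lists and tests were chosen with earlier results of these data known. Alternatives covered list length, score, gene assignment, pseudocount, low filter, variance, samples fitted and a replicate block. Motifs in sites away from promoters were not analysed here.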

Additional observations from a re-analysis of the deposited data

Results flagged for a closer look

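Among the 69 named genes, 3 had libraries that in both genotypes separated the subsets without overlap but in opposite directions. Cd96, an adhesion receptor gene, had 1 and 3 summits in WT cDC2 against 0 and 0 in WT cDC1, and 2 and 1 in KO cDC2 against 3 and 3 in KO cDC1. The difference between the genotypes was -2.21 on the log2 scale (adjusted p = 0.376, limma). Tprg had 4 and 4 against 1 and 1 in WT and 3 and 2 against 4 and 4 in KO, a difference of -1.85 (adjusted p = 0.376, limma). Tom1, for an endosomal adaptor, had 6 and 6 against 5 and 5 in WT and 4 and 4 against 6 and 5 in KO, a difference of -0.60 (adjusted p = 1, limma). None of the 3 passed the test of the difference between genotypes.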

How the results depend on the processing

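Of 32 named genes called between the KO subsets, 11 were called under every alternative that could give them a value (Ankrd31, Bhlhe23, Chst9, Cnnm1, Dpp10, Pcsk5, Rtl4, Scn11a, Tmem132c, Zkscan2 and a), and none reversed. Of 37 named genes not called, 13 were called under at least 1 alternative. The 280 calls became 494 with the 30868 highest summits, 92 with a pseudocount of 0.5, 64 with no low filter, 489 with no rounding variance, 950 with a trend in the variance and 681 with the KO libraries alone, and 317 to 706 when 1 library was left out. The 0 genes that differed between genotypes became 33, 299 and 4 with the 30868 highest, no rounding variance and the trend, and 5 to 43 when 1 library was left out. The cause was not tested. With the replicate block, 672 and 38 genes were called and all 280 were kept, but same-numbered libraries of the 2 subsets deviated together with r = 0.0273 in KO and 0.0188 in WT, and the labels do not say that numbers pair them.

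KO cDC1-only sites numbered 4368 and KO cDC2-only sites 3846 with the 30868 highest summits, 3391 KO cDC2-only sites were absent from all deposited KO cDC1 summits, and leaving out 1 library gave 11248 to 15133 and 10265 to 14213. The share of summits outside genes turned to -0.488 with all deposited summits and ranged from -0.124 to 0.33 when 1 KO library was left out. Of the 280 calls, 127 were kept with all deposited summits (1 reversed), 70 of 153 tested with the 30868 highest (2 reversed), 171 of 232 tested with a 5 kb span (1 reversed) and 103 with no rounding variance. Among the named genes, log2 differences that reversed belonged to genes not called: Clec9a -0.21 (score of at least 5), Foxp1 -0.13 (all deposited), -0.005 (30868 highest) and -0.13 (score), Immp2l 0.23 and Zfp704 -0.24 (30868 highest), Insig1 -0.30 (all deposited) and -0.11 (score), Irf4 -0.20 and Notch2 -0.008 (all deposited) and Zbtb46, which ranged from -0.258 to 0.005 when 1 library was left out. Depth is unknown, so a missing summit does not show closed chromatin.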
